A study of Homo sapiens with 6 samples.

Results

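The YAP, TEAD and Hippo target genes described here are 10 rows of a count table of 26334 genes, picked by gene symbol: the coactivators YAP1 and WWTR1, the DNA-binding partners TEAD1, TEAD3 and TEAD4, and the target genes CTGF, CYR61, ANKRD1, AMOTL2 and LATS2. All 10 were present in the table and all 10 passed the filter on low counts. They were measured by poly-A RNA-seq in MCF10DCIS.COM, an established human breast cancer cell line of the MCF10A series with basal features. 3 libraries (shLuc) came from cells infected with a lentiviral control shRNA against luciferase. 3 libraries (shWDR5) came from cells infected with shRNA against WDR5, the core subunit of the H3K4 methyltransferase complexes. The study describes its WDR5 silencing as done with pooled hairpins, so a single hairpin's effect cannot be told apart. Both vectors also carry TagRFP and a puromycin resistance gene, and both groups were selected with 3 µg/ml puromycin in DMEM/F12 with horse serum. No source used here says whether the 3 libraries of a group came from separate infections, so the p-values measure the spread between these libraries, which may be technical. The study's concern was the part of WDR5 in the mesenchymal state and spread of breast cancer cells, and the comparison below asks how the Hippo output stood when WDR5 was silenced.

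In the Hippo pathway, the MST kinases activate the LATS kinases, which phosphorylate YAP (YAP1) and its paralog TAZ (WWTR1) so that they stay in the cytoplasm or are degraded. Unphosphorylated YAP and TAZ enter the nucleus, where they have no DNA-binding domain of their own and act through the TEAD factors. CTGF and CYR61, secreted matricellular proteins of the CCN family, and ANKRD1, a nuclear ankyrin repeat protein, are the transcripts most used to read YAP activity. AMOTL2, an angiomotin that holds YAP at cell junctions, and LATS2 itself are both targets and inhibitors of YAP. Control of YAP is largely by phosphorylation and location, which RNA-seq does not measure.

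WDR5 silencing split the target genes. CTGF rose 2.75-fold and LATS2 2.06-fold, AMOTL2 fell to 0.747 of its shLuc level, and neither CYR61 nor ANKRD1 passed the test. Among the factors above them, WWTR1, TEAD1 and TEAD4 fell to between 0.741 and 0.811 of control, TEAD3 rose 1.28-fold, and YAP1 did not pass the test. In total 3 members were called higher and 4 lower at an adjusted p under 0.05 (edgeR quasi-likelihood test, Benjamini-Hochberg over 16117 genes). These counts stand against a wide background, since 26.6% of all genes tested were called higher and 29.9% lower, so the shares of members called are not in themselves a result about these genes. With an absolute log2 fold change of at least 0.6 also asked for, CTGF and LATS2 remained higher (background 10.9%) and no member remained lower (background 12%).

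TEAD binding is what joins the target genes to YAP, so the promoters of the 10 genes were searched for the TEAD element. RefSeq windows of 300 bases (GRCh38.p14, 250 bases before the annotated start and the rest after it) were matched for 7 of the 10 members; TEAD1, TEAD4 and CYR61 had none. The core letters GGAATG were searched on both strands, and occur at least once in 14% of 35116 such windows, at least 2 times in 1.37% and at least 3 times in 0.128%. CTGF held 3 copies, 169, 104 and 95 bases before the start, ANKRD1 held 2, 220 and 128 bases before it, and AMOTL2 (one of its 2 starts) and YAP1 held 1 each, 69 and 162 bases before it. LATS2 held 1 copy that begins at base 10 of the transcript. WWTR1 and TEAD3 had no match. The letters TGANTCA of AP-1, a frequent companion of TEAD at enhancers, were found in 7.71% of windows and, among the members, in ANKRD1 alone. Sequences are given 5′ to 3′ on the gene's strand for the 4 target genes that held the element, since these genes moved in different directions: the 250 bases before the start for CTGF (chr6:131951373-131951622), ANKRD1 (chr10:90921088-90921337) and AMOTL2 (chr3:134374448-134374697), and 30 bases around the element for LATS2 (chr13:21061560-21061589), all on the minus strand. Capitals mark GGAATG or, where the element lies on the other strand, CATTCC.
CTGF: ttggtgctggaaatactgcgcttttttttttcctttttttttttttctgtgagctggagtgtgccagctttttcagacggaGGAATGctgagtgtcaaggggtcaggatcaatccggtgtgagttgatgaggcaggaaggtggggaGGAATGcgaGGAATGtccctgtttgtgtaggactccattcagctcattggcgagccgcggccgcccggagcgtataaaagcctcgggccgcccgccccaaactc
ANKRD1: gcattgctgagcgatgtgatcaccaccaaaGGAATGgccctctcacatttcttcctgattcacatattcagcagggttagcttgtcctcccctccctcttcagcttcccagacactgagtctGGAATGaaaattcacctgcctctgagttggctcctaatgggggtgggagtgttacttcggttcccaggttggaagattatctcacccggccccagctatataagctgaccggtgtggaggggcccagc
AMOTL2: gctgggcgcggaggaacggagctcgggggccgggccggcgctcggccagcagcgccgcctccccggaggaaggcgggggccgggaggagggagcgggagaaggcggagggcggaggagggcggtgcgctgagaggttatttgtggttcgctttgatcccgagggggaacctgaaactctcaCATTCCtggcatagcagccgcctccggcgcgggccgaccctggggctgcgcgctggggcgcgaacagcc
LATS2: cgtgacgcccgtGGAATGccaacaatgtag
A match of letters is a description and not a measured site: among genes with the element, CTGF and LATS2 rose, AMOTL2 fell, and ANKRD1 and YAP1 did not pass the test.

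The libraries held 38218108 to 57640167 counted reads, and WDR5 itself checked the labels. WDR5 stood at 16.5, 15.2 and 16.1 RPKM in the shLuc libraries and at 7.34, 7.65 and 6.52 RPKM in the shWDR5 libraries, a fall to 0.450 of the control level (log2 fold change -1.15, SE 0.07, adjusted p = 8.67e-07). RPKM here are reads scaled to the length of the gene's summed exons and to the library total, with libraries scaled by TMM, so levels of different genes can be set side by side. The line kept its epithelial markers in all 6 libraries (the 9 fixed basal and luminal markers summed to 2820 to 2940 RPKM in shLuc and 3110 to 3330 in shWDR5). Within them KRT5 (log2 fold change 0.91), KRT14 (1.29), KRT6A (1.83) and TP63 (0.42) rose, and CDH1 (-1.03) and EPCAM (-0.33) fell. The luminal keratins KRT8 (0.04, adjusted p = 0.607) and KRT18 (-0.12, adjusted p = 0.11) and the integrin ITGA6 (0.05, adjusted p = 0.586) did not pass the test. The 6 fibroblast markers summed to at most 4 RPKM in shLuc and 3.01 in shWDR5, nearly all from COL1A1, with COL1A2, COL3A1, LUM and DCN at or near 0. Leukocyte and endothelial markers summed to at most 7.92 and 1.79 RPKM, and the leukocyte sum was mostly CD68, which epithelial cells also express, with PTPRC and CD3E at or near 0. CD14 fell from 0.905 to 0.439 RPKM (log2 fold change -1.05, adjusted p = 0.000342), and PECAM1 from 1.46 to 0.890 RPKM (-0.71, adjusted p = 5.65e-05). CD68 (-0.10, adjusted p = 0.426) and CDH5 (-0.33, adjusted p = 0.213) did not pass the test. In bulk RNA, a shift in the mix of basal-like and luminal-like cells and a change of RNA per cell cannot be told apart, and the part of the keratin and CDH1 changes in the results below was not tested.

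**Figure D1:**
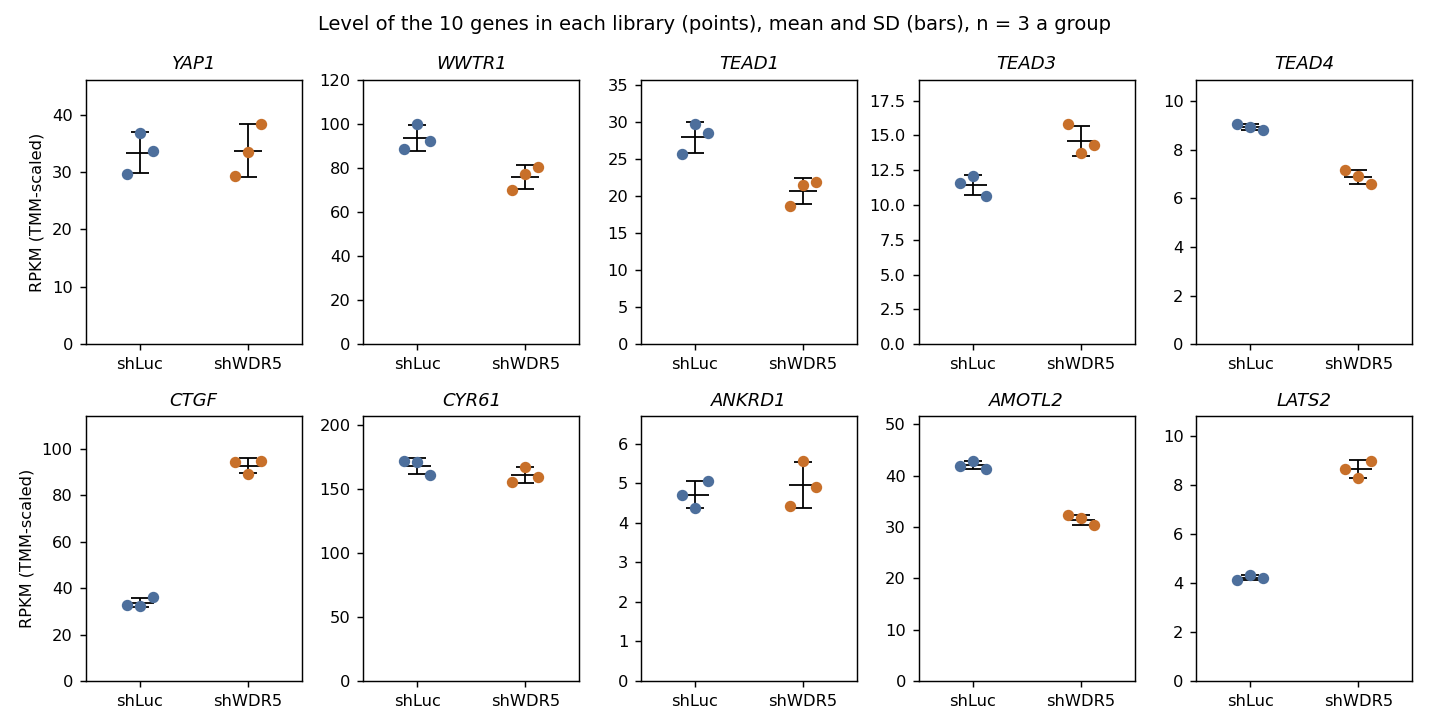
Level of each of the 10 genes in each library, as TMM-scaled RPKM on linear axes that start at 0, with a point for each library and a bar for the mean and SD of 3 libraries a group. The groups do not overlap for 7 genes, beside 62.3% of all genes tested, and they do for YAP1, CYR61 and ANKRD1.

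The 2 coactivators differed. YAP1 (chr11:101981192-102104154 in hg19, plus strand) was at 29.6, 36.9 and 33.6 RPKM in shLuc and at 29.2, 33.5 and 38.4 RPKM in shWDR5. The groups overlapped over nearly their whole range, with the first library of each group the lowest of its group. The log2 fold change of YAP1 was 0.01 (SE 0.10, adjusted p = 0.913), and its 95% interval ran from -0.21 to 0.24, that is from 0.863 to 1.18 of the control level. WWTR1, the gene of TAZ (chr3:149235022-149421060, minus strand), was the more abundant coactivator in every library. It stood at 88.8, 100.1 and 92.2 RPKM in shLuc and at 70.2, 77.3 and 80.5 RPKM in shWDR5, with all silenced libraries under all controls. WWTR1 fell to 0.811 of the control level (log2 fold change -0.30, SE 0.07, adjusted p = 0.00297). The ratio of WWTR1 to YAP1 within a library, which does not depend on the scaling between libraries, went from 2.82 ± 0.155 to 2.27 ± 0.155 (SD, n = 3 a group).

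The TEAD genes moved in both directions. TEAD1 (chr11:12695969-12966284, plus strand), the most abundant TEAD transcript per length in these cells, was at 25.6, 29.7 and 28.4 RPKM in shLuc and 18.7, 21.5 and 21.8 RPKM in shWDR5. Every silenced library was under every control, and the level fell to 0.741 (log2 fold change -0.43, SE 0.08, adjusted p = 0.000683). TEAD4 (chr12:3068478-3149842, plus strand) was at 9.06, 8.94 and 8.82 RPKM in shLuc and 7.16, 6.91 and 6.57 RPKM in shWDR5. These narrow groups also stood apart, and TEAD4 fell to 0.770 (log2 fold change -0.38, SE 0.07, adjusted p = 0.000695). TEAD3 (chr6:35441374-35464861, minus strand) went the other way, from 11.6, 12.1 and 10.7 RPKM to 15.8, 13.7 and 14.3 RPKM. Its silenced libraries were all above the controls, and it rose 1.28-fold (log2 fold change 0.35, SE 0.08, adjusted p = 0.00237). TEAD2, the remaining gene of the family, is not among the 10 and is given for completeness: it was at 14.1, 12.4 and 12.3 RPKM in shLuc and 7.78, 8.26 and 8.07 RPKM in shWDR5, a fall to 0.621 (log2 fold change -0.69, adjusted p = 2.36e-05).

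The makeup of the family changed accordingly. The summed RPKM of TEAD1 to TEAD4 went from 61.3 ± 1.69 in shLuc to 50.2 ± 0.667 in shWDR5. TEAD3 made up 18.7% ± 0.852 of that sum in control cells and 29.1% ± 2.54 in silenced cells, while TEAD2 went from 21.2% ± 1.94 to 16% ± 0.35. In shLuc the order by level was TEAD1, then TEAD2 and TEAD3, and last TEAD4. The lowest TEAD2 library (12.3 RPKM) was just above the highest TEAD3 library (12.1 RPKM), so these neighbours were close. Their order in shLuc rests on the gene lengths used. By reads alone TEAD3 stood above TEAD2 in each shLuc library (1710, 1405 and 1287 against 1620, 1121 and 1158). In shWDR5 the order was TEAD1, TEAD3, TEAD2, TEAD4, and by RPKM no neighbours overlapped in either group.

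**Figure D2:**
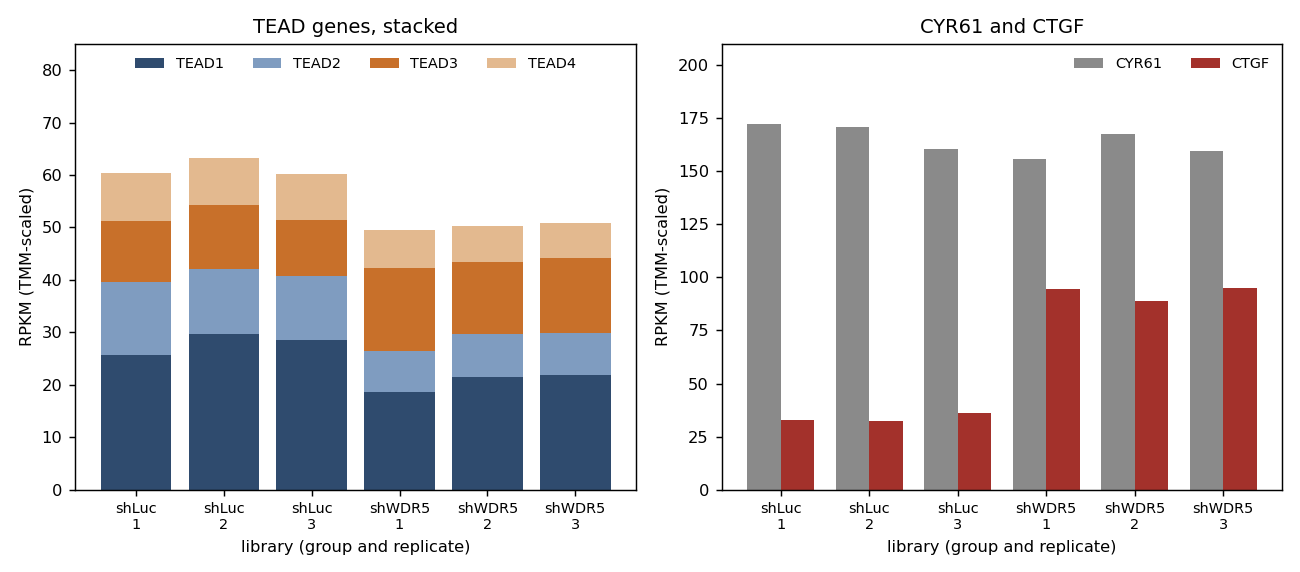
Left, TMM-scaled RPKM of TEAD1 to TEAD4 stacked for each of the 6 libraries; right, RPKM of CYR61 and CTGF side by side for the same libraries. The TEAD sum is lower in the 3 shWDR5 libraries while the TEAD3 segment is taller, and CTGF is taller in the 3 shWDR5 libraries at a similar CYR61.

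The paired readouts CTGF and CYR61 parted. CTGF (chr6:132269317-132272518, minus strand) was at 32.8, 32.5 and 36.1 RPKM in the controls and at 94.5, 89.0 and 95.1 RPKM after silencing. The 2 groups were far apart, and the rise was 2.75-fold (log2 fold change 1.46, 95% interval 1.32 to 1.59, SE 0.06, adjusted p = 1.06e-07). By absolute size this was number 639 of the 16117 changes. CYR61 (chr1:86046444-86049648, plus strand), the most abundant of the 10 transcripts per length, was at 172, 171 and 161 RPKM in shLuc and 156, 168 and 159 RPKM in shWDR5. These groups overlapped, with a log2 fold change of -0.06 (SE 0.05, adjusted p = 0.357) and a 95% interval of the fold from 0.882 to 1.04. Within a library the ratio of CTGF to CYR61 therefore went from 0.202 ± 0.0199 to 0.578 ± 0.0408, which differed in all 3 against all 3 libraries. An exact two-sided permutation test of this ratio gave p = 0.1, the smallest that 3 against 3 allows, as it did for the other 4 tested this way (WWTR1 to YAP1, LATS2 to LATS1, the TEAD sum and the TEAD3 share), so none of them can pass a threshold of 0.05. The TEAD2 share was not tested.

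ANKRD1 (chr10:92671857-92681032, minus strand) was a weakly expressed target here, at 4.70, 4.39 and 5.06 RPKM in shLuc and 4.42, 5.58 and 4.90 RPKM in shWDR5. The groups overlapped and the log2 fold change was 0.08 (SE 0.10, adjusted p = 0.54), with a 95% interval from -0.14 to 0.30.

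The 2 targets that feed back on YAP moved in opposite directions. LATS2 (chr13:21547176-21635722, minus strand), a kinase that phosphorylates YAP and TAZ, was at 4.11, 4.32 and 4.20 RPKM in shLuc and 8.67, 8.31 and 9.01 RPKM in shWDR5. The silenced libraries were all far above the controls, a 2.06-fold rise with a 95% interval of 1.87 to 2.26 (log2 fold change 1.04, SE 0.06, adjusted p = 5.59e-07). LATS1, its paralog, fell to 0.787 (log2 fold change -0.35, SE 0.10, adjusted p = 0.0118). The LATS1 call was lost without shLuc replicate 2 (log2 fold change -0.28, adjusted p = 0.0587) and without shLuc replicate 3 (-0.32, adjusted p = 0.0558). The ratio of LATS2 to LATS1 went from 0.616 ± 0.0625 to 1.61 ± 0.171, so LATS1 was the more abundant of the pair per length in the controls and LATS2 in the silenced cells. AMOTL2 (chr3:134074187-134094259, minus strand) was at 42.0, 43.0 and 41.3 RPKM in shLuc and 32.2, 31.7 and 30.3 RPKM in shWDR5. Every silenced library was lower, and AMOTL2 fell to 0.747 (log2 fold change -0.42, SE 0.05, adjusted p = 5.68e-05).

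**Figure D3:**
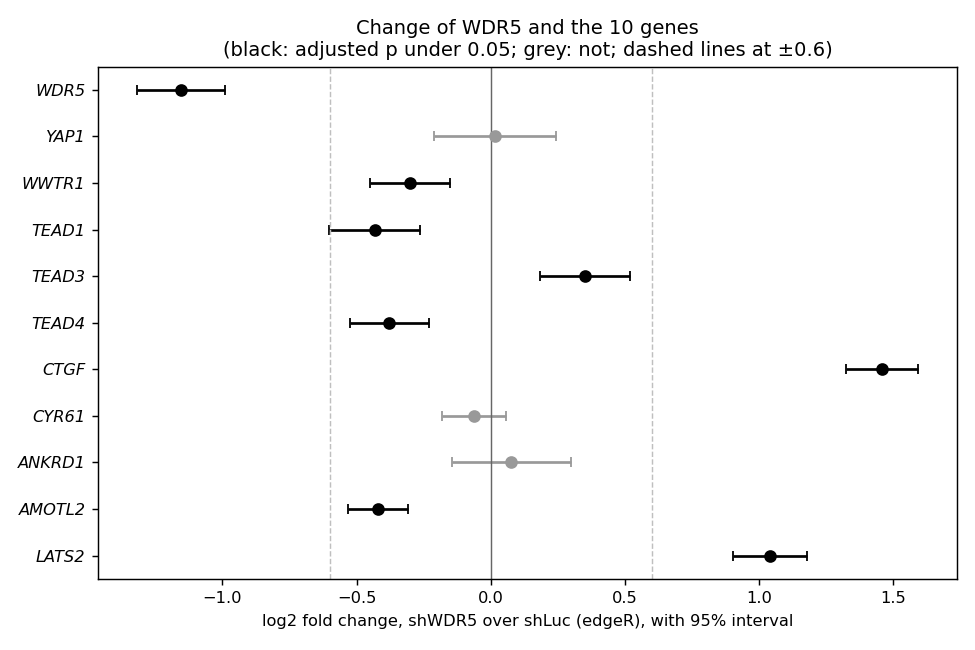
Log2 fold change of shWDR5 over shLuc for WDR5 and the 10 genes from the edgeR fit, with 95% intervals, black where the adjusted p is under 0.05. CTGF and LATS2 lie beyond the dashed line at 0.6, and YAP1, CYR61 and ANKRD1 have intervals that cross 0.

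Over the 10 genes the median log2 fold change was -0.02, beside -0.01 over all genes tested. The libraries of the groups did not overlap for 7 of the 10, against 62.3% of all genes tested. No exon base of the 10 genes was shared with another gene of the table.

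The rest of the pathway was read from lists of 42 further Hippo genes, of which 41 were tested: 9 rose, 14 fell and 18 did not pass the test (22% and 34.1% of those tested, against the 26.6% and 29.9% above). Several of the genes that lie upstream of LATS were lower and some were higher. Of 10 kinases and adaptors, 2 rose and 4 fell. The adaptor SAV1 rose 1.14-fold (log2 fold change 0.19, SE 0.05, adjusted p = 0.0132). This call was lost with library totals only and without shWDR5 replicate 3. Both MST kinases fell, STK4 to 0.638 (log2 fold change -0.65, SE 0.07, adjusted p = 1.98e-05) and STK3 to 0.679 (-0.56, SE 0.07, adjusted p = 7.72e-05). TAOK2, a kinase that can activate them, rose 1.26-fold (0.33, SE 0.06, adjusted p = 0.000763). Its relative TAOK3 fell (-0.24, SE 0.06, adjusted p = 0.00453), and TAOK1 did not pass the test (0.04, adjusted p = 0.73). Of 9 upstream membrane and junction proteins, 2 rose and 5 fell. DCHS1 rose 1.82-fold (log2 fold change 0.86, SE 0.13, adjusted p = 0.000302), from a very low 0.149 RPKM in shLuc to 0.271 RPKM in shWDR5. NF2, the gene of merlin, which recruits LATS to the membrane, was at 23.2, 24.1 and 23.5 RPKM in shLuc and 13.7, 13.9 and 13.8 RPKM in shWDR5, a fall to 0.584 (log2 fold change -0.78, SE 0.05, adjusted p = 8.49e-07). AMOT, the founding angiomotin, was weakly expressed and fell from 1.43 to 0.537 RPKM (log2 fold change -1.41, SE 0.11, adjusted p = 2.46e-06), so 2 of the 3 angiomotin genes were lower and AMOTL1 did not pass the test (-0.09, adjusted p = 0.18). WWC2, a paralog of KIBRA, fell (-0.34, adjusted p = 0.000432), as did WWC1 (-0.18, adjusted p = 0.0186). FAT4 fell as well (-0.40, adjusted p = 0.0035), from a very low 0.307 RPKM in shLuc to 0.232 RPKM in shWDR5. FRMD6 rose by a log2 fold change of 0.20 (adjusted p = 0.0139), a call that is lost with library totals as the only scaling (adjusted p = 0.0567) and without shWDR5 replicate 3 (adjusted p = 0.0634).

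The proteins that act on LATS, YAP or TEAD at later steps were mixed, and the counts in these short lists are a description only, beside the 26.6% higher and 29.9% lower of all genes tested. VGLL4, a Vestigial-like protein that competes with YAP for TEAD, had the largest change of all the listed Hippo genes. It was at 3.40, 3.13 and 3.48 RPKM in shLuc and 12.3, 11.5 and 12.5 RPKM in shWDR5, a 3.63-fold rise (log2 fold change 1.86, SE 0.07, adjusted p = 5.04e-08). Its relatives VGLL1 (-0.44, adjusted p = 0.0702) and VGLL3 (0.28, adjusted p = 0.192) did not pass the test, and VGLL2 was too low to be tested. Of 8 genes for YAP turnover and cytoplasmic retention, 2 rose and 3 fell. SFN, the epithelial 14-3-3 sigma, rose 1.57-fold (log2 fold change 0.65, SE 0.08, adjusted p = 5.18e-05) and YWHAB 1.26-fold (0.34, adjusted p = 0.000642), while YWHAE (-0.29, adjusted p = 0.000386) and FBXW11, a subunit of the ubiquitin ligase that degrades YAP (-0.21, adjusted p = 0.0118), fell. Of the 3 Ajuba family genes, which restrain LATS, WTIP rose (0.38, adjusted p = 0.00505) and AJUBA and LIMD1 did not pass the test. Of 7 genes of STRIPAK, the phosphatase complex that opposes the MST kinases, SIKE1 fell (-0.47, adjusted p = 0.00464) and STRN4 rose (0.17, adjusted p = 0.0273). The STRN4 call is lost with library totals only (adjusted p = 0.0996), without shLuc replicate 3 (0.0711) and without shWDR5 replicate 1 (0.0927).

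**Figure D4:**
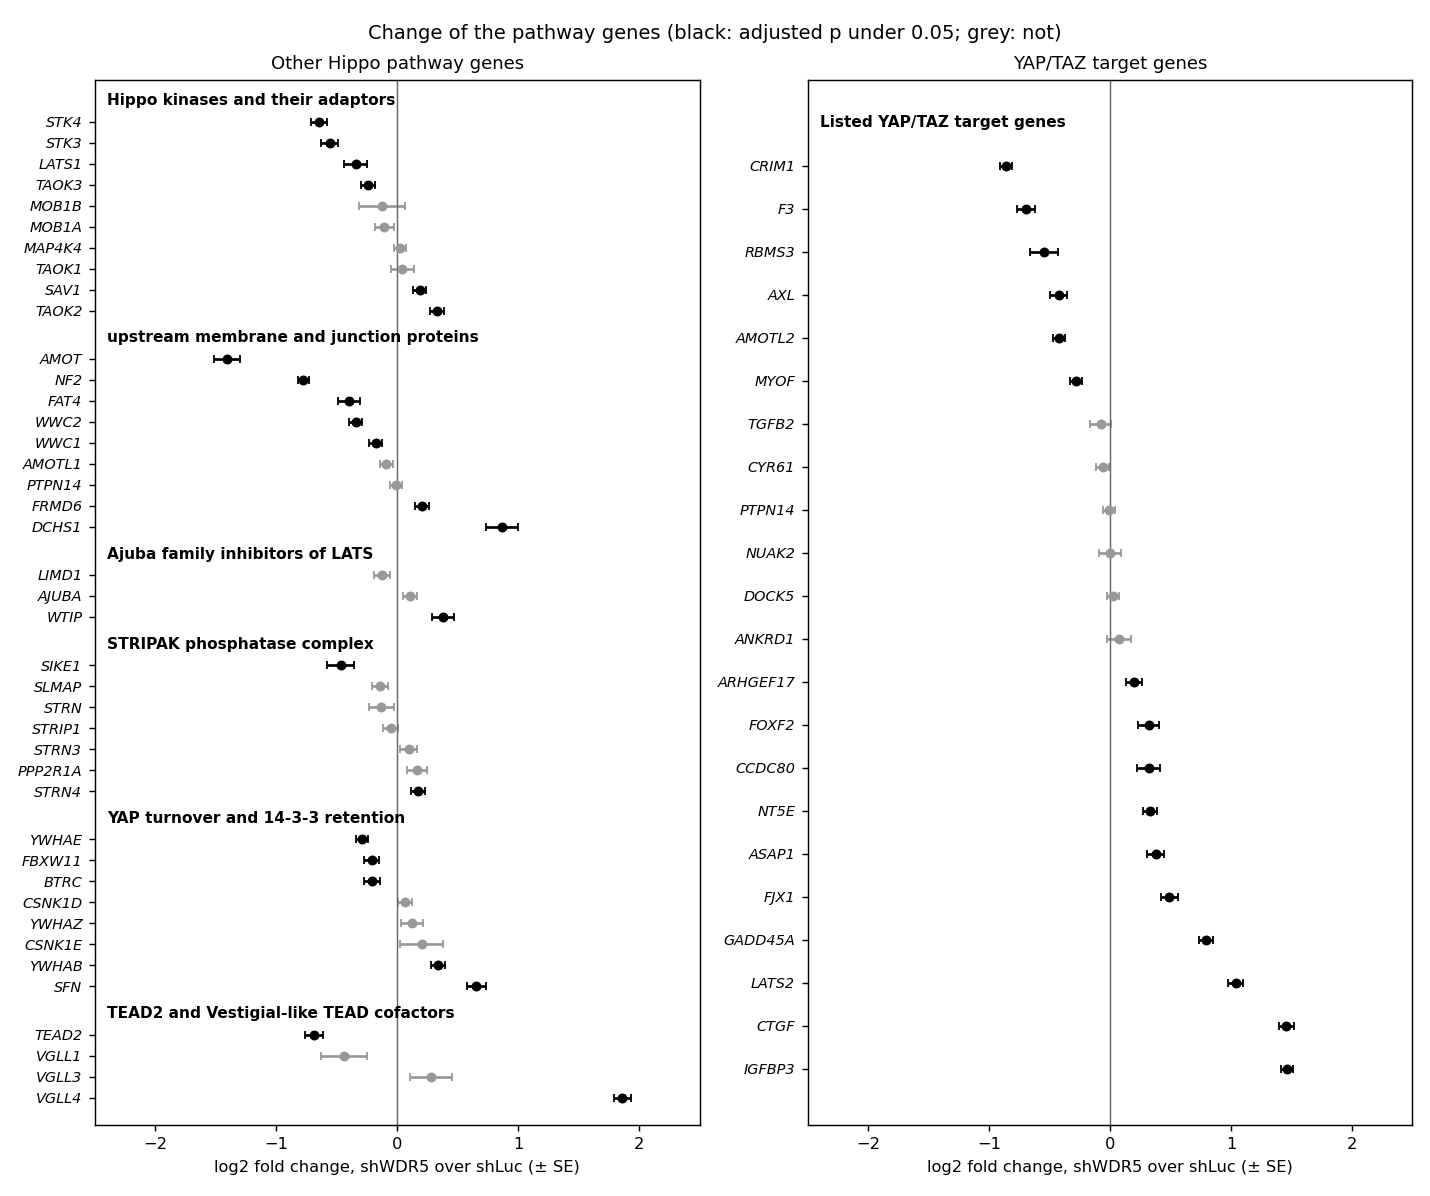
Log2 fold change (± SE) of shWDR5 over shLuc for the tested Hippo pathway genes by role, left, and for the 22 listed YAP/TAZ target genes, 5 of them among the 10, right; black points have an adjusted p under 0.05. VGLL4 lies farthest to the right and AMOT farthest to the left among the Hippo genes, and the target genes run from CRIM1 at -0.86 to IGFBP3 at 1.46.

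A list of 17 other YAP/TAZ target genes also held changes in both directions: 8 rose, 5 fell and 4 did not pass the test (47.1% and 29.4%, against 26.6% and 29.9% of all genes tested), with a median log2 fold change of 0.02 beside -0.01 over all genes tested. IGFBP3, a secreted binding protein of the insulin-like growth factors, rose 2.76-fold, from 93.0, 93.9 and 98.6 RPKM to 262, 259 and 266 RPKM (log2 fold change 1.46, SE 0.05, adjusted p = 3.89e-08). GADD45A, a stress and growth arrest gene, rose 1.73-fold (0.79, SE 0.06, adjusted p = 1.86e-06). CRIM1, a transmembrane protein that binds BMPs, fell to 0.550 (-0.86, SE 0.05, adjusted p = 6.31e-07), and F3, the gene of tissue factor, fell to 0.618 (-0.69, SE 0.07, adjusted p = 2.49e-05). PTPN14, which stands in both the target and the upstream list, did not pass the test (-0.01, adjusted p = 0.883). Some of these genes answer to TGFβ, p53 and other pathways as well, and the part of each input was not tested.

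The other CCN genes, relatives of CTGF and CYR61, were close to silent. NOV rose from 0.327, 0.297 and 0.295 RPKM to 1.00, 1.06 and 0.983 RPKM (log2 fold change 1.72, SE 0.13, adjusted p = 2.63e-06). WISP1 had 5, 2 and 2 reads in shLuc and 12, 21 and 15 in shWDR5 (adjusted p = 0.00101). WISP2 and WISP3 had at most 6 and 3 reads in any library and were not tested.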

How the data were processed

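RNA-seq of 3 shLuc and 3 shWDR5 libraries of MCF10DCIS.COM was used. The deposited table holds raw read counts per gene, which the authors made with TopHat2 2.1.0 on hg19 and featureCounts, per the labels' processing notes; the strand setting and gene models are not given in the sources used here. The gene lengths are an other unit, the summed exon bases deposited with the counts. A second deposited table, of the authors' own edgeR fold changes and p-values, was not used.

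Counts were filtered with filterByExpr, which left 16117 genes, scaled by TMM, and tested with edgeR 4.0.16 (R 4.3.3; glmQLFit and glmQLFTest, two-sided, Benjamini-Hochberg over all genes tested), with calls at an adjusted p under 0.05. The SE is the log2 fold change divided by the square root of F, and intervals use the fit's degrees of freedom. RPKM use the same TMM scaling. Depth was 38218108 to 57640167 counts a library. No pair of replicates agreed within counting noise (chi-square over its degrees of freedom 7.11 to 18.2), so none was treated as a repeat deposit of another. This does not show that they are independent cultures. Replicates 2 and 3 were the closest pair in both groups (7.59 in shLuc and 7.11 in shWDR5), and pairs with replicate 1 stood at 14.2 to 18.2. The code was tested on simulated data.

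Members and gene lists were chosen with earlier results of these data known. Named genes are WDR5, the 10 members, TEAD2 and the CCN genes. From each of the other lists, up to 4 called genes with the largest change at 0.5 RPKM or more are named. AMOTL1, VGLL1, VGLL2, VGLL3, AJUBA, LIMD1, PTPN14 and the cell type markers were added to complete families and lists. SAV1 and DCHS1 were added as the remaining genes called higher in the lists upstream of LATS, and TAOK3, WWC1 and FAT4 as the remaining genes called lower. TAOK1 was added to complete its family. The calls of TAOK3, WWC1 and FAT4 were not followed gene by gene under the alternatives. Alternatives were DESeq2 1.42.0, its size factors, library totals, other filters, a replicate block, leaving out each library and a fold size of 0.6.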

Additional observations from a re-analysis of the deposited data

How the results depend on the processing

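The calls of WDR5 and of the 7 called members kept their direction and stayed past the threshold under all 12 alternative fits, with CTGF between 1.40 and 1.51 and LATS2 between 0.98 and 1.07 (log2 fold change). YAP1, CYR61 and ANKRD1 passed the threshold under none of them. The sign of YAP1 turned with library totals only (-0.0413), without shLuc replicate 1 (-0.0484) and without shWDR5 replicate 3 (-0.0889), and leaving out 1 library gave -0.0889 to 0.108. The sign of ANKRD1 turned without shWDR5 replicate 2 (-0.0178), within a range of -0.0178 to 0.155 over the libraries left out. Asking for an absolute log2 fold change of at least 0.6 took the calls from 4291 to 1751 higher and from 4821 to 1939 lower over all genes, from 4 to 0 lower members, from 9 to 3 higher and 14 to 4 lower Hippo genes, and from 8 to 2 higher and 5 to 2 lower target genes, by its construction. Scaling by library totals only gave 3705 genes higher and 5498 lower, with 6 Hippo genes higher and 18 lower, against 9 and 14, while members called were again 3 and 4. With the replicate block, 4901 genes were called higher and 5511 lower, and members called were again 3 higher and 4 lower. The same-numbered libraries correlated at 0.555, 0.0647 and 0.199 in their deviations from the group means. The first libraries of the groups gave the highest value of all pairs (0.555). Every other pair with a first library was negative (-0.494 to -0.161). Deviations from a group mean cancel out within the group by construction, so these values are not independent of the 0.555 or of one another. As shLuc replicate 2 correlated best with shWDR5 replicate 3 (0.362), the numbers were not taken to pair samples. Whether the first libraries share a source of variation was not tested. Leaving out 1 library gave 3803 to 4263 genes higher and 4271 to 4584 lower, 7 to 10 Hippo genes higher and 12 to 15 lower, and 6 to 8 target genes higher and 5 lower. With 3 libraries a group, changes of YAP1 and ANKRD1 within their intervals of about 0.2 to 0.3 log2 units were not detectable.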
